A study of Mus musculus with 5 samples.

Results

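The 34 genes described here encode the enzymes and transporters that bring glucose into the cell, carry it through glycolysis, divert it into the pentose phosphate pathway and store it as glycogen. They were chosen by gene symbol for these pathways, without the lactate and pyruvate genes, and all 34 were found among the 21667 genes of the table. Total epidermis was profiled from the shaved back skin of male wild-type C57BL/6 mice aged 7 weeks (postnatal day 49). The forskolin group (2 libraries) received 10 uM forskolin, the cAMP group (2 libraries) received 1.325 mM cAMP, and the control group (1 library) is labelled untreated. Both compounds were put on the skin 3 times within 5 days, dissolved in DMSO and carried in a lotion, and vehicle use on the control skin is not stated. The series asks which pathways lie downstream of cAMP and Creb when the hair cycle is brought forward. Whether each library is a different mouse is not stated, and p-values speak only of the variation among these libraries, part or all of which could be technical.

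Hexokinase traps glucose as glucose 6-phosphate, from which several routes lead on. Glycolysis splits it to pyruvate and yields ATP, and phosphofructokinase is its main control point, activated by fructose 2,6-bisphosphate. The pentose phosphate pathway oxidises it to make NADPH, used in lipid synthesis and against oxidants, and ribose for nucleotides. Glycogen synthase and phosphorylase store and release it. Forskolin activates adenylyl cyclase and so raises cAMP inside cells, and in liver and muscle cAMP is the classical signal that switches glycogen from storage to breakdown. Epidermis takes up glucose mainly through the transporter GLUT1 and is a strongly glycolytic tissue.

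The libraries differed in make-up, and this bears on every comparison with the control. Mitochondrial transcripts took 50.7% and 45.6% of the forskolin libraries, 43.2% and 58.1% of the cAMP libraries and 69.3% of the control library, while nuclear genes, with pseudogenes and rRNA set aside, made up 31.4% and 34.8% with forskolin, 38.0% and 26.0% with cAMP and 7.90% in the control. Values are CPM, counts scaled to a total in each library, so nearly every nuclear gene reads higher in the treated libraries. The listed transcripts did not sum to the same total, at 925187 and 805254 CPM with forskolin, 946739 and 930081 CPM with cAMP and 911664 CPM in the control. The median change of the 13764 genes tested was 1.69 for forskolin against control and 1.66 for cAMP against control on the log2(CPM + 1) scale. Results are therefore given as deposited and after median-of-ratios scaling (written "rescaled"), which leaves medians of 0.18 and 0.16. Depth was estimated at between 34200000 and 51700000 reads a library, and 3 reads in the control came to 0.0607 CPM. All 10 keratinocyte markers were above that floor in all 5 libraries, with summed rescaled levels of 5891 and 5240 CPM in the forskolin libraries, 4838 and 3366 CPM in the cAMP libraries and 7815 CPM in the control library. Summed dermal fibroblast markers (10 of 10 listed, at most 2 at or under the floor in a library, those in the control being Col6a2 and Pdgfra) stood highest in the control once rescaled, at 20.4 and 180 CPM with forskolin, 87.7 and 282 CPM with cAMP and 588 CPM in the control. Of the 9 tested, 5 fell with forskolin and 2 with cAMP after rescaling, and their part in the comparisons with the control was not tested. Among all genes tested, 7.39% fell with forskolin and 7.78% with cAMP after rescaling. Ribosomal RNA genes took 7.98% of forskolin replicate 2, against 0.644% to 0.768% of the other 4 libraries. In such bulk tissue, fewer cells of a type and less RNA per cell cannot be told apart.

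Together the 34 genes held 1397 and 1676 CPM in the forskolin libraries, 2632 and 1537 CPM in the cAMP libraries and 276 CPM in the control library. As a share of the nuclear transcripts alone this was 0.481% and 0.599% with forskolin, 0.732% and 0.637% with cAMP and 0.383% in the control, so all 4 treated libraries lay above the control library on that measure too. Per kilobase of coding transcript, Aldoa had the highest mean in both treated groups, at 180 CPM per kb with forskolin and 267 with cAMP. The next in order differed between the groups: with forskolin Pkm (96.8), Taldo1 (59.8), Tpi1 (51.7) and Tkt (46.6), and with cAMP Taldo1 (120), Pkm (105), Tkt (79.1) and Tpi1 (66.4). The lowest were Slc2a3 (0.187) and Pfkfb4 (0.210) with forskolin and Pfkfb4 (0.363), Pfkfb3 (0.383) and Slc2a3 (0.430) with cAMP. The libraries of a pair differed widely, so neighbours in this order overlapped, as with Pkm at 144 and 65.5 and Taldo1 at 154 and 86.5 CPM per kb in the cAMP libraries. Only coding transcripts listed under each symbol entered this order, so genes with signal listed elsewhere stood lower in it. Near-identical copies elsewhere in the genome held 69.2% to 81.3% of the combined Eno1 signal and 88.2% to 97.6% of that of Pgk1. Non-coding transcripts held 94.1% to 100% of Gapdh.

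**Figure D1:**
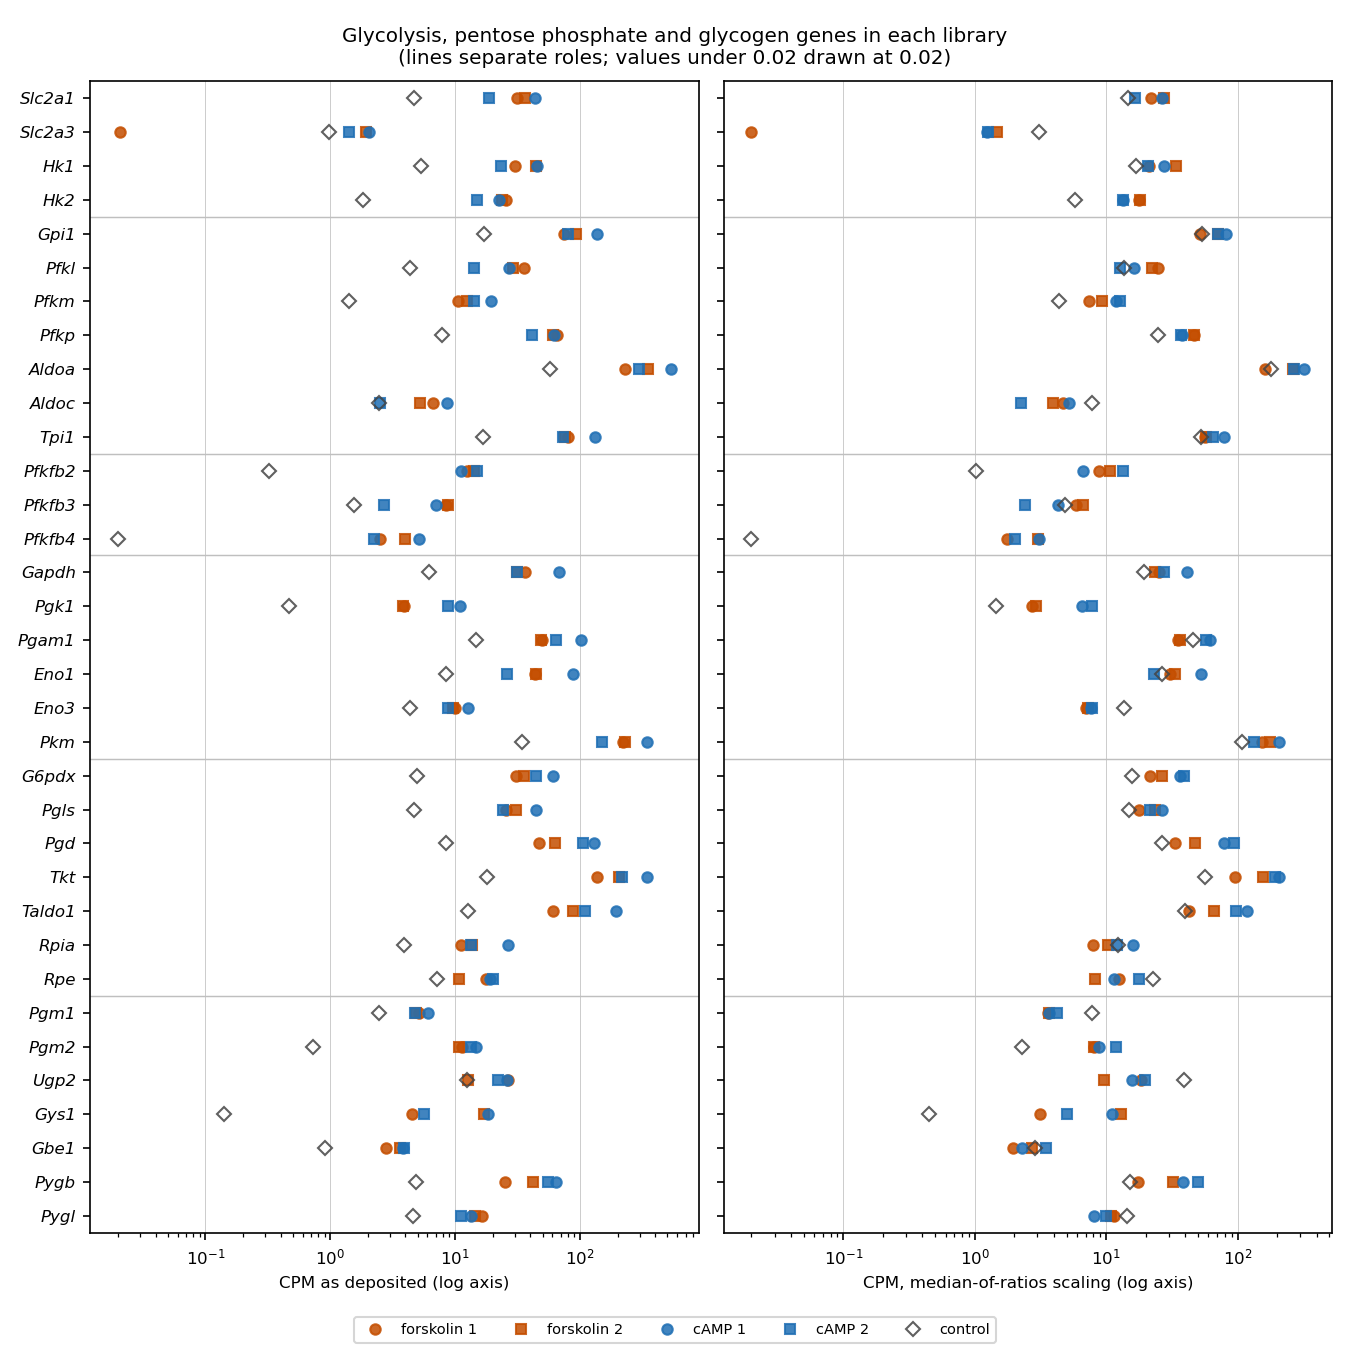
Level of each of the 34 genes (rows, grouped by role from glucose entry to glycogen) in each library, as deposited CPM (left) and after median-of-ratios scaling (right), on log axes. Filled orange points are the 2 forskolin libraries, filled blue points the 2 cAMP libraries and open diamonds the control library, which lies to the left for nearly all genes as deposited and among the treated libraries for many genes once rescaled.

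As deposited, 27 of the 34 genes were higher and 0 lower with forskolin (limma, Benjamini-Hochberg adjusted p under 0.05), where 66.3% of all genes tested were called higher, 0.341% lower and 66.7% in either direction. The median change of the 34 was 2.28, or 2.31 with Pfkfb4, which was under the floor in the control, set at its bound. With cAMP, 28 were higher and 0 lower, where 65.1% of all genes were called higher, 0.436% lower and 65.6% in either direction, and the median was 2.51 (2.54 with Pfkfb4 at its bound). Shares of that size among the 34, and in each pathway group below, are read beside a background of similar size. The rescaled shares of all genes that follow are likewise the background of the rescaled group counts below. After rescaling, 5 genes rose and 1 fell with forskolin, against 14.4% of all genes higher, 7.39% lower and 21.8% in either direction, with a median of 0.43. With cAMP, 11 rose and 0 fell, against 14.8% of all genes higher, 7.78% lower and 22.6% in either direction, with a median of 0.54. Without forskolin replicate 2 the rescaled forskolin count was 3 in place of 6, and the rescaled cAMP count was 5 without cAMP replicate 1 and 7 without cAMP replicate 2. Pooling the 4 treated libraries against the control gave 28 higher and 0 lower as deposited, where 70.8% of all genes were higher, 0.458% lower and 71.3% either. After rescaling it gave 8 higher and 1 lower, where 17.2% were higher, 9.29% lower and 26.5% either. The 2 comparisons with the control share their 1 control library, and the spread in every test comes from the treated pairs alone. The spread of each gene was drawn toward a trend over all genes. That trend weighed as 360 degrees of freedom as deposited and 15.7 after rescaling, against 2 from the libraries of the gene itself. An SE or interval therefore reflects that trend more than the pairs of the gene named.

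**Figure D2:**
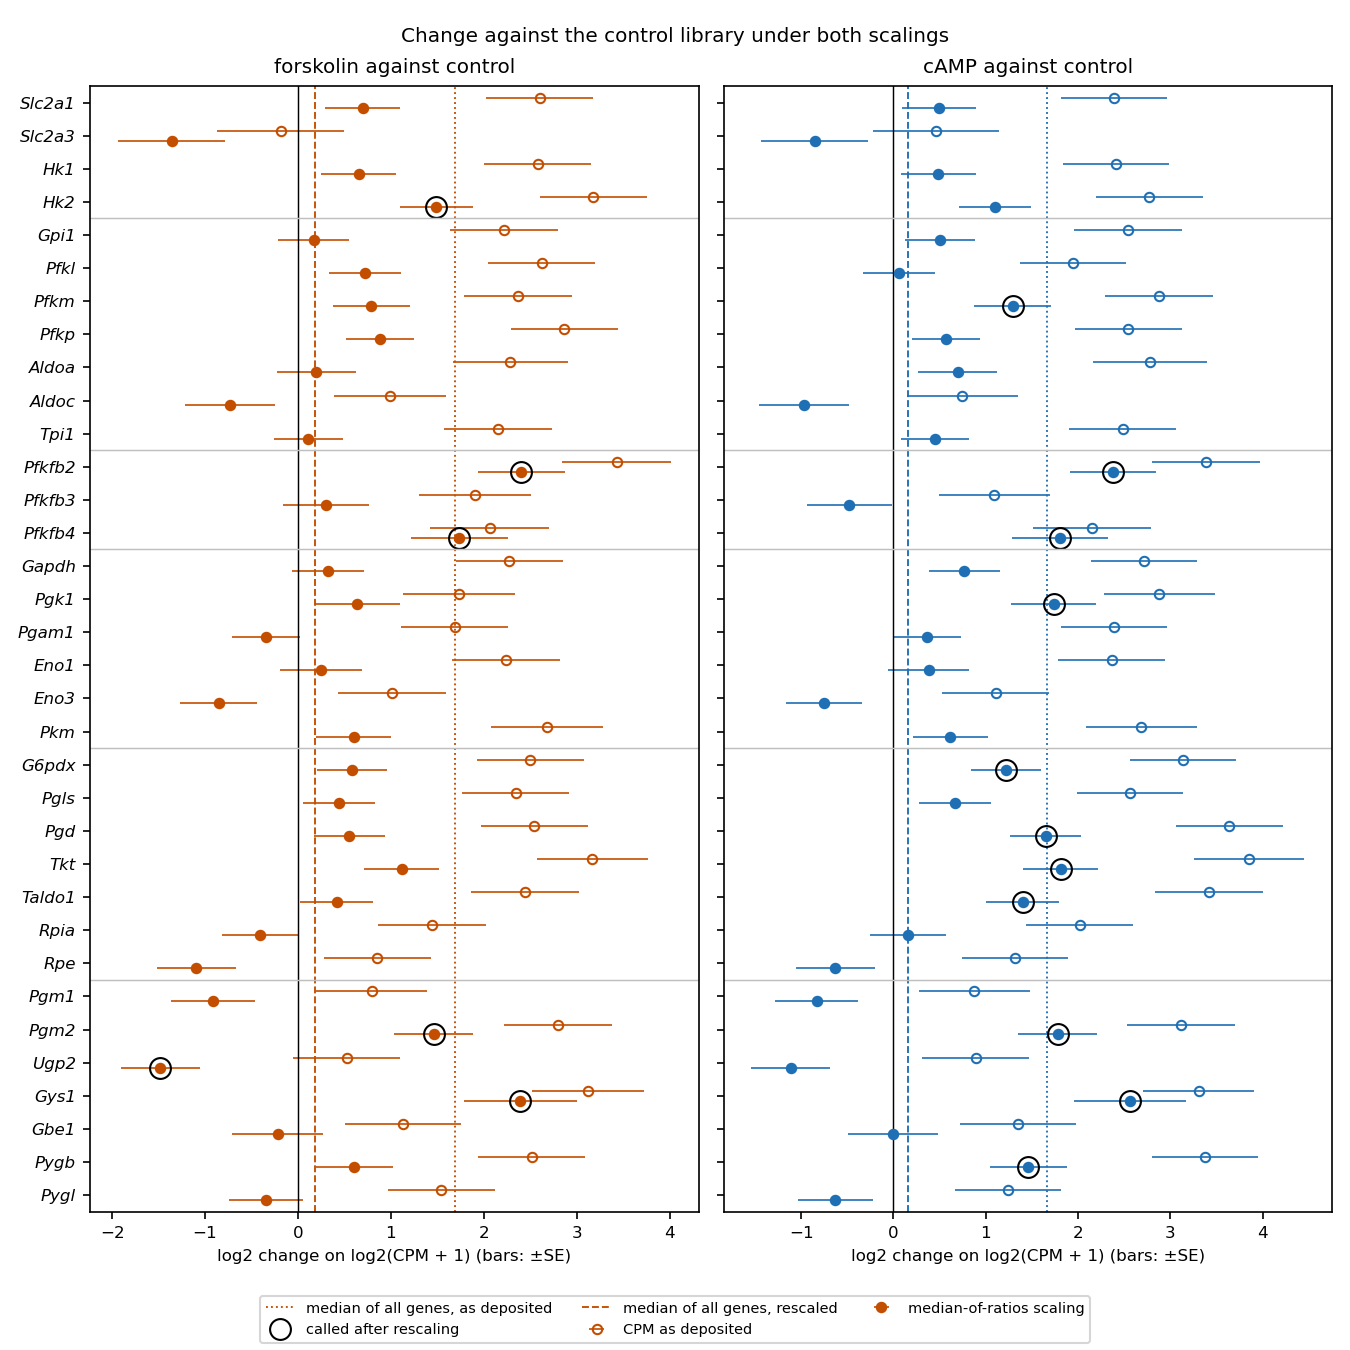
Change of each gene against the control library on the log2(CPM + 1) scale, for forskolin (left) and cAMP (right), as deposited (open) and rescaled (filled), with bars of ±1 SE. Vertical dotted and dashed lines mark the median of all 13764 genes under each scaling, and circled points are the 6 genes called with forskolin and the 11 called with cAMP after rescaling.

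The 5 genes that rose with forskolin under both scalings were Hk2, Pfkfb2, Pfkfb4, Pgm2 and Gys1, and all but Hk2 also rose with cAMP under both. Their RefSeq promoters are shown because these are the members called higher with forskolin under both scalings. Members that rose under both scalings with cAMP only (Pfkm, Pgk1, G6pdx, Pgd, Tkt, Taldo1 and Pygb) are not shown. Whether the sequence bears on the change was not tested. Each line gives the 250 bases before the start site, written 5′ to 3′ on the gene's own strand, with matches to 4 motifs in capitals. The motifs, read on both strands, were the cAMP response element core TGACG, the hypoxia-inducible factor core ACGTG, the E-box CACGTG (which contains that core) and the antioxidant response element TGACNNNGC. The windows are in build GRCm38.p6 at chr6:82774455-82774704 (minus strand) for Hk2, chr1:130715822-130716071 (minus strand, the first of 3 listed promoters) for Pfkfb2, chr9:108991652-108991901 (plus strand) for Pfkfb4, chr4:99929201-99929450 (plus strand) for Pgm2, which RefSeq lists as Pgm1, and chr7:45434589-45434838 (plus strand) for Gys1.
Hk2: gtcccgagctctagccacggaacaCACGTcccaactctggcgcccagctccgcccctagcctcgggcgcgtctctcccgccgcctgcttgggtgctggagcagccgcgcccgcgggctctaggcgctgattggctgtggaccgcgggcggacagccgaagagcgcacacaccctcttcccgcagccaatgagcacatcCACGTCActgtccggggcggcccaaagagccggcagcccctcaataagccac
Pfkfb2: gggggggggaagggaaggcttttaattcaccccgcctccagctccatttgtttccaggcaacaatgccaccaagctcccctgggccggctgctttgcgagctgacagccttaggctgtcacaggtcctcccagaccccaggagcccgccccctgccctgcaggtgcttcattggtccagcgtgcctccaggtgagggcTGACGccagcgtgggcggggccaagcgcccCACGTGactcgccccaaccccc
Pfkfb4: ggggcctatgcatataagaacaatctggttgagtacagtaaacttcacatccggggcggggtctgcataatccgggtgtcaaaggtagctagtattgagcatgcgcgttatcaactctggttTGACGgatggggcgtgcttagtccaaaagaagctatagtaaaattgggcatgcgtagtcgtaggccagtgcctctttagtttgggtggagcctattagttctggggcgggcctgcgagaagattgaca
Pgm2: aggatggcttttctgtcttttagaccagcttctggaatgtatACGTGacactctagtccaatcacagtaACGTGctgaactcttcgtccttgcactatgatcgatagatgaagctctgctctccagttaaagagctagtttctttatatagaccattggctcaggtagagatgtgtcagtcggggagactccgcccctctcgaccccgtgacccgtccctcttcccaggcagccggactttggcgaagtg
Gys1: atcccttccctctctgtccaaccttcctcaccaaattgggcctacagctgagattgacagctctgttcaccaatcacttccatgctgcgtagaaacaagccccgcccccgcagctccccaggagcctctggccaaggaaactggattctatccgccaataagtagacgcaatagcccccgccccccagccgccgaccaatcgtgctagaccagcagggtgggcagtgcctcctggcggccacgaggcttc

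Hk2 held 1 response element core 50 bases before the start and 2 hypoxia cores, and the first Pfkfb2 promoter held 1 response element core and 1 E-box. Pfkfb4 held 1 response element core, Pgm2 held 2 hypoxia cores, and the Gys1 window held none of the 4 motifs. The second Pfkfb2 promoter, not shown, held none of the 4 motifs, and the third held only 1 hypoxia core. Over all members, 33 of 34 matched the RefSeq table (all but Slc2a3), with 48 promoters. The full response element TGACGTCA was in 0 of these 48, against 1.55% of all 32851 mouse promoters of the same length. The response element core was in 9 of 48 (18.8%, against 17.8% of all), the hypoxia core in 18 of 48 (37.5%, against 16.6%), the E-box in 3 (6.25%, against 6.02%) and the antioxidant element in 4 (8.33%, against 10.2%). A match is a run of letters in this window and not a shown binding site. Hypoxia cores were present upstream of Slc2a1, Hk2, Pfkm, Pfkfb2, Pfkfb3, Aldoa, Pgk1, Pgam1, Pkm, Pgm1, Pgm2, Ugp2, Pygb and Pygl.

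Among the genes of glucose entry, Hk2, the inducible hexokinase that binds mitochondria, had 25.4 and 23.7 CPM in the forskolin libraries, 22.3 and 14.95 CPM in the cAMP libraries and 1.82 CPM in the control library. All 4 treated libraries lay above the control, and they still did after rescaling, at 17.9 and 18.0 CPM with forskolin, 13.5 and 13.4 CPM with cAMP and 5.75 CPM in the control. The rescaled change was 1.49 ± 0.39 with forskolin (SE, adjusted p = 0.013) and 1.10 ± 0.39 with cAMP, which missed the threshold (adjusted p = 0.052). Both forskolin libraries were above both cAMP libraries once rescaled, yet the difference of 0.39 had a 95% interval of -0.28 to 1.06. Hk1, the hexokinase of most tissues, had 30.3 and 44.5 CPM with forskolin, 45.1 and 23.2 CPM with cAMP and 5.31 CPM in the control, and its rescaled changes of 0.65 and 0.49 did not pass. Per kilobase of coding transcript Hk1 stood above Hk2 in every library, at 6.15 to 12.3 against 2.83 to 4.11 CPM per kb in the treated libraries and 1.32 against 0.263 CPM per kb in the control.

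Slc2a1, which encodes GLUT1, had 30.9 and 36.0 CPM with forskolin, 43.9 and 18.6 CPM with cAMP and 4.66 CPM in the control. The gene rose as deposited in both comparisons (2.60 ± 0.58, adjusted p = 5.7e-05, and 2.39 ± 0.58, adjusted p = 2.0e-04), and the rescaled changes of 0.70 and 0.49 did not pass. Most of the treated signal was listed under 1 transcript annotated as a target of nonsense-mediated decay, a pathway that degrades transcripts with an early stop: it had 23.8 and 29.9 CPM with forskolin, 38.7 and 15.3 CPM with cAMP and 1.23 CPM in the control. The main coding transcript had 7.19 and 5.66 CPM with forskolin, 5.20 and 2.22 CPM with cAMP and 3.43 CPM in the control. The decay transcript was higher than the control in all 4 treated libraries, whereas the coding transcript of cAMP replicate 2 was below the control. Counting coding transcripts alone turned the rescaled change negative, to -1.07 with forskolin (adjusted p = 0.12) and -1.58 with cAMP (adjusted p = 0.029). Slc2a3, the neuronal-type transporter GLUT3, stayed between 0.0206 and 2.05 CPM over the 5 libraries, with forskolin replicate 1 under its floor of 0.0618 CPM.

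**Figure D3:**
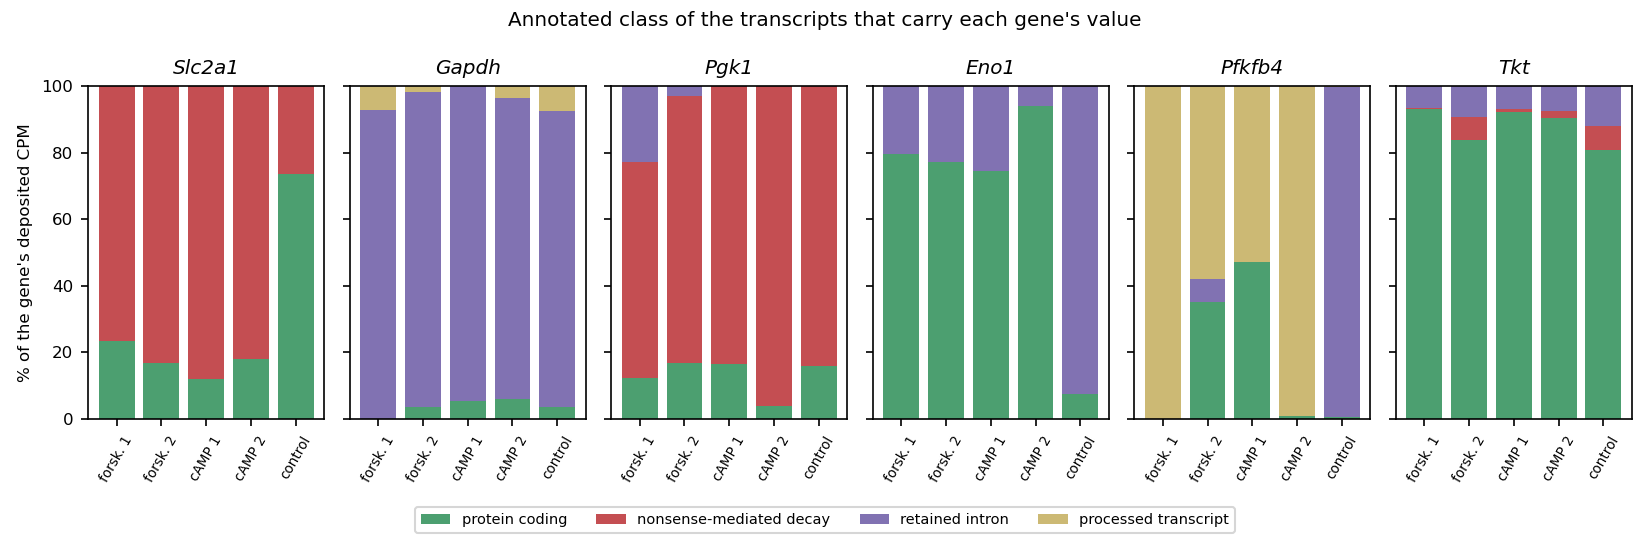
Share of each gene's deposited CPM (vertical axis, %) listed under protein-coding, nonsense-mediated decay, retained-intron and processed transcripts, for 6 genes in the 5 libraries, control at the right of each panel. For Slc2a1 the coding share was 23.2% and 16.9% with forskolin, 11.9% and 18.0% with cAMP and 73.7% in the control, coding transcripts held at most 5.90% of Gapdh, and 80.9% to 93.1% of Tkt.

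Of the 7 upper glycolysis genes between glucose 6-phosphate and glyceraldehyde 3-phosphate, 6 rose with each compound as deposited, and after rescaling only Pfkm with cAMP did. Pfkm, the muscle-type phosphofructokinase, had 10.6 and 12.3 CPM with forskolin, 19.5 and 14.2 CPM with cAMP and 1.40 CPM in the control. Both cAMP libraries were above both forskolin libraries, and the rescaled change was 1.29 ± 0.41 with cAMP (adjusted p = 0.033) and 0.79 ± 0.41 with forskolin (adjusted p = 0.17). The cAMP call was lost when either cAMP library was left out (adjusted p = 0.072 and 0.086). Summed rescaled skeletal muscle markers (18 of 18 listed, none at or under the floor) were highest in the control, at 127 and 134 CPM with forskolin, 91.7 and 223 CPM with cAMP and 326 CPM in the control. Their part in the Pfkm values was not tested. Pfkl, the liver-type enzyme, had 35.3 and 29.1 CPM with forskolin, 27.1 and 14.2 CPM with cAMP and 4.37 CPM in the control. Pfkp, the platelet-type enzyme, had 65.7 and 61.1 CPM with forskolin, 62.1 and 41.1 CPM with cAMP and 7.84 CPM in the control. Neither passed after rescaling (0.72 and 0.06 for Pfkl, 0.88 and 0.57 for Pfkp). Per kilobase, Pfkp was the leading phosphofructokinase at 20.4 to 31.6 CPM per kb in the treated libraries and 2.79 in the control, and the ranges of Pfkl (3.78 to 9.39) and Pfkm (3.74 to 6.86) overlapped.

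Aldoa, the ubiquitous aldolase, had 231 and 348 CPM with forskolin, 532 and 298 CPM with cAMP and 57.4 CPM in the control. Its rescaled changes were 0.19 and 0.69, within the spread. Gpi1, which interconverts glucose and fructose 6-phosphates, and Tpi1, which interconverts the triose phosphates, had rescaled changes between 0.11 and 0.50, none past the test. The copy Gm1840 (98.7% identity over 1046 bases) held 25.7% to 39.2% of the combined Gpi1 signal. Aldoc, the brain-type aldolase, was the 1 gene of the 7 not called as deposited, at 2.47 CPM in the control and 2.52 to 8.64 CPM in the treated libraries.

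The bifunctional Pfkfb enzymes make and break fructose 2,6-bisphosphate, the activator of phosphofructokinase, and 2 of the 3 rose with each compound under both scalings. Pfkfb2, the heart-type isozyme, had 12.5 and 14.1 CPM with forskolin, 11.1 and 14.9 CPM with cAMP and 0.324 CPM in the control, about 16.0 estimated reads. All 4 treated values were above the control, also after rescaling, at 8.78 and 10.7 CPM with forskolin, 6.70 and 13.4 CPM with cAMP and 1.02 CPM in the control. The mean was 41.0-fold the control with forskolin and 40.1-fold with cAMP as deposited, and 9.53-fold and 9.82-fold after rescaling. The rescaled change was 2.40 ± 0.47 (adjusted p = 0.0019) and 2.38 ± 0.47 (adjusted p = 0.0016). Both calls held when any 1 treated library was left out and when coding transcripts alone were counted (1.68 and 1.72, adjusted p = 0.038 and 0.031).

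Pfkfb4, the testis-type isozyme, had 2.51 and 3.98 CPM with forskolin and 5.09 and 2.25 CPM with cAMP, and was under the floor of 3 reads in the control. Against that floor it was at least 53.5-fold higher with forskolin and at least 60.4-fold higher with cAMP as deposited, and at least 12.5-fold and at least 13.3-fold higher after rescaling. Between 52.9% and 100% of the treated value was outside coding transcripts, and with coding transcripts alone neither rescaled call remained (adjusted p = 0.63 and 0.53). Without forskolin replicate 2 the forskolin call was lost (adjusted p = 0.15), and without cAMP replicate 1 the cAMP call was lost (adjusted p = 0.078). Pfkfb3, the isozyme that mainly makes the activator, had 8.40 and 8.72 CPM with forskolin, 7.04 and 2.69 CPM with cAMP and 1.55 CPM in the control. It rose as deposited with forskolin (1.90 ± 0.60, adjusted p = 0.0040) and did not pass with cAMP, and the rescaled changes were 0.30 and -0.48. Its transcript classes differed between libraries: coding transcripts had 6.33 and 6.79 CPM with forskolin, 3.45 and 0.205 CPM with cAMP and 0.123 CPM in the control, where processed transcripts held 87.2% of the gene, and nonsense-mediated decay transcripts held 92.4% of it in cAMP replicate 2. With coding transcripts alone the rescaled change was 2.04 with forskolin (adjusted p = 0.038) and 0.45 with cAMP (adjusted p = 0.63). Over all transcripts the rescaled difference between forskolin and cAMP was 0.78 with an interval of -0.02 to 1.57.

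Of the 6 lower glycolysis genes from glyceraldehyde 3-phosphate to pyruvate, 5 rose with each compound as deposited. After rescaling 0 rose with forskolin (limma, 0 of 6 at an unadjusted p under 0.05) and Pgk1 rose with cAMP. Pgk1, phosphoglycerate kinase, had 3.91 and 3.85 CPM with forskolin, 10.9 and 8.76 CPM with cAMP and 0.464 CPM in the control, with both cAMP libraries above both forskolin libraries. The rescaled change with cAMP was 1.73 ± 0.46 (adjusted p = 0.012). Reads of Pgk1 cannot be told from those of near-identical copies: the table lists Pgk1-rs7 (100% identity over 1255 bases) at 49.7 and 33.96 CPM with forskolin, 99.4 and 37.2 CPM with cAMP and 13.3 CPM in the control, and the pseudogene Gm5537 at 39.6 and 44.3 CPM with forskolin, 28.9 and 28.0 CPM with cAMP and 5.53 CPM in the control. Copies held 88.2% to 97.6% of the combined signal. With copies added, the rescaled cAMP change was 0.29 and did not pass (adjusted p = 0.60).

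**Figure D4:**
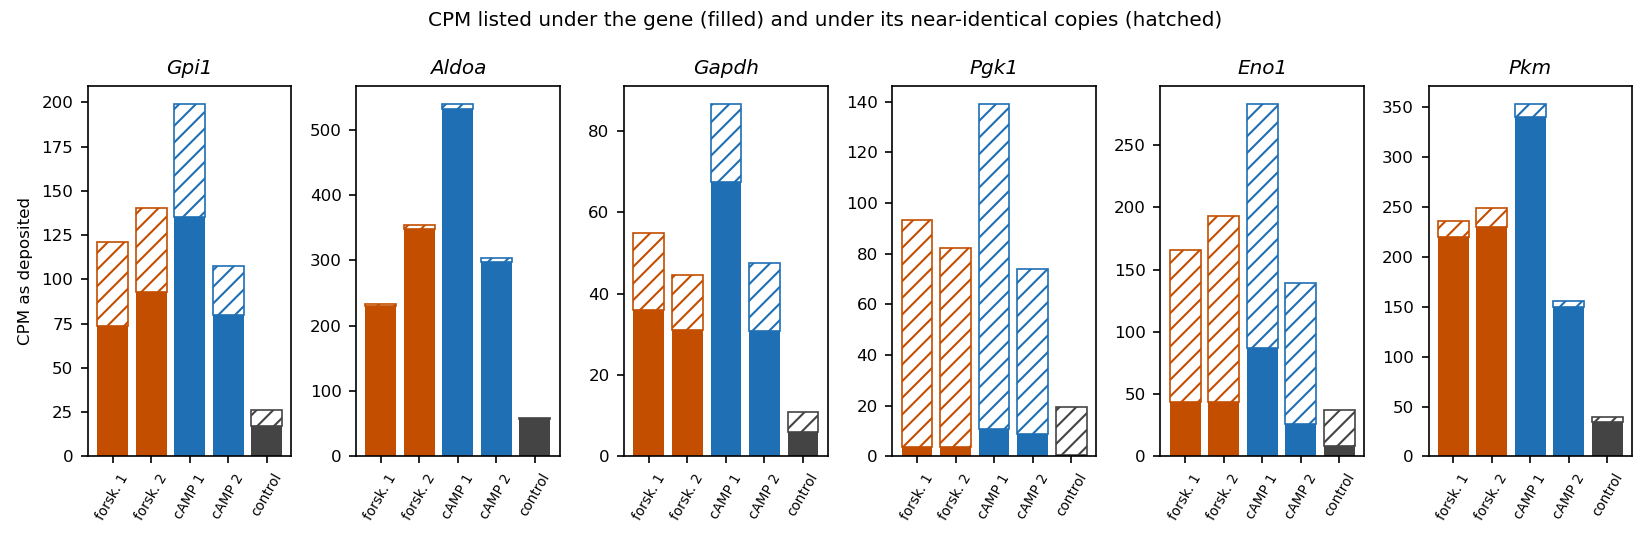
Deposited CPM listed under 6 genes (filled) and under their near-identical copies elsewhere in the genome (hatched, at least 90% identity), in the 2 forskolin, 2 cAMP and 1 control libraries from left to right. Each panel has its own axis from 0. The copies of Pgk1 hold at least 88.2% of its combined signal, and those of Aldoa and Pkm hold little.

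Gapdh, which makes 1,3-bisphosphoglycerate, had 36.1 and 31.2 CPM with forskolin, 67.6 and 30.9 CPM with cAMP and 6.14 CPM in the control, with 99 listed copies. Retained-intron and processed transcripts made up 94.1% to 100% of it, and neither of its rescaled changes (0.33 and 0.77) passed. Eno1, the ubiquitous enolase, had 43.4 and 44.03 CPM with forskolin, 87.1 and 26.0 CPM with cAMP and 8.48 CPM in the control, and 69.2% to 81.3% of the combined signal lay in 3 copies. Non-coding transcripts took 6.13% to 25.5% of Eno1 across the treated libraries, against 92.6% in the control. Its rescaled change over all transcripts was 0.25 and 0.38, whereas coding transcripts alone gave 3.08 with forskolin (adjusted p = 6.1e-04) and 3.31 with cAMP (adjusted p = 2.8e-04). That coding change rests on 0.627 coding CPM of Eno1 in the control. With its copies added, Eno1 had 117 and 147 rescaled CPM with forskolin, 172 and 125 with cAMP and 118 in the control. Eno3, the muscle enolase, had 9.96 and 9.54 CPM with forskolin, 12.6 and 8.75 CPM with cAMP and 4.34 CPM in the control. All 4 treated libraries were below the control after rescaling, at 7.00 and 7.25 CPM with forskolin, 7.61 and 7.83 CPM with cAMP and 13.7 CPM in the control, without passing the test (-0.85 ± 0.41, adjusted p = 0.14, and -0.75 ± 0.41, adjusted p = 0.20), beside the lower summed muscle markers given above, whose part in this was not tested. Pgam1, phosphoglycerate mutase, had rescaled changes of -0.35 with forskolin and 0.36 with cAMP. Its copy Pgam1-ps2 (100% identity over 765 bases) held 18.0% and 30.7% of the combined signal with forskolin, 6.08% and 9.86% with cAMP and 9.71% in the control. With that copy added, Pgam1 had 42.8 and 53.1 rescaled CPM with forskolin, 65.6 and 63.3 with cAMP and 50.9 in the control.

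Pkm, pyruvate kinase, had 220 and 230 CPM with forskolin, 341 and 150 CPM with cAMP and 34.4 CPM in the control, and its rescaled changes of 0.60 and 0.62 did not pass. Its M1 and M2 forms use alternative exons of 167 bases, which the table counts as separate transcripts. The exons are shown because the isoform share rests on telling them apart, with the 64 bases that differ in capitals (61.7% identity, GRCm38, plus strand): M2 at chr9:59675568-59675734 and M1 at chr9:59675029-59675195.
Pkm M2 exon: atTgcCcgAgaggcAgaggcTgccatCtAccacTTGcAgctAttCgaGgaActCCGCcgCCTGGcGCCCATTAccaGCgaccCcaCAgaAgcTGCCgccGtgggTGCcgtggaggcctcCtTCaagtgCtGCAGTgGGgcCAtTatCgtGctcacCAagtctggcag
Pkm M1 exon: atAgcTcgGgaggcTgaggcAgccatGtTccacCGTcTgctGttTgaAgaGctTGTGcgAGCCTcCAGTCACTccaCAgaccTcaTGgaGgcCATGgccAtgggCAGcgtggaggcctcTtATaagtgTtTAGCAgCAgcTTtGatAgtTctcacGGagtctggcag

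M2, the form of proliferating tissues, made up 66.5% and 84.0% of the Pkm signal with forskolin, 84.5% and 68.2% with cAMP and 58.7% in the control. All 4 treated libraries were above the control, but the spread within each pair was as large as the gap between the groups, and with 1 control library no test of the share was made.

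In the pentose phosphate pathway 6 of 7 genes rose as deposited with forskolin and 7 of 7 with cAMP. After rescaling 0 of 7 passed with forskolin (2 at an unadjusted p under 0.05, limma; median change 0.44) and 4 of 7 rose with cAMP (median 1.22), namely G6pdx, Pgd, Tkt and Taldo1. Of all genes, 66.3% were called higher with forskolin and 65.1% with cAMP as deposited, and 14.4% and 14.8% after rescaling. G6pdx, glucose 6-phosphate dehydrogenase and the first step, had 30.6 and 35.2 CPM with forskolin, 60.2 and 44.1 CPM with cAMP and 4.98 CPM in the control. Its rescaled change was 1.22 ± 0.38 with cAMP (adjusted p = 0.027) and 0.58 ± 0.38 with forskolin. Pgd, which makes the second NADPH, had 47.2 and 62.4 CPM with forskolin, 129 and 106 CPM with cAMP and 8.48 CPM in the control, with rescaled changes of 1.65 ± 0.38 with cAMP (adjusted p = 0.0055) and 0.55 with forskolin. The cAMP libraries were above the forskolin libraries without overlap for both genes. The share of all genes with such a separation was not counted, for these or for the other members so described.

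Tkt, transketolase, had 137 and 206 CPM with forskolin, 341 and 216 CPM with cAMP and 17.8 CPM in the control. Its rescaled change was 1.81 ± 0.40 with cAMP (adjusted p = 0.0042) and 1.12 ± 0.40 with forskolin (adjusted p = 0.056). Taldo1, transaldolase, had 61.1 and 87.5 CPM with forskolin, 194 and 108 CPM with cAMP and 12.6 CPM in the control, and its rescaled changes were 1.40 ± 0.39 (adjusted p = 0.017) with cAMP and 0.42 with forskolin. Both cAMP libraries again lay above both forskolin libraries. Once rescaled, the same held outside this pathway for Gpi1, Pfkm, Aldoa, Tpi1, Gapdh, Pgk1, Pgam1, Eno3, Pgm2 and Pygb. Both forskolin libraries lay above both cAMP libraries for Hk2, Pfkl, Pfkp, Pfkfb3 and Pygl. The cAMP calls of Pgd and Tkt held without either cAMP library, while those of G6pdx and Taldo1 were lost without either one. Pgls, Rpia and Rpe, which hydrolyse the lactone and interconvert pentose phosphates, had rescaled changes between -1.09 and 0.66 and none passed.

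Forskolin against cAMP called 0 of the 34 genes under either scaling (limma), where 0.378% of all genes were called as deposited (0.189% in each direction) and 0.349% after rescaling (0.0944% higher, 0.254% lower). At an unadjusted p under 0.05 there were 3 and 6 of the 34 genes, against 6.81% and 11.2% of all genes. All 7 pentose phosphate genes had negative differences, with a rescaled median of -0.64. The rescaled difference was -1.10 for Pgd (95% interval -1.76 to -0.44, adjusted p = 0.16), -0.98 for Taldo1 (-1.66 to -0.31, adjusted p = 0.23), -0.69 for Tkt (-1.39 to -0.0012, adjusted p = 0.44) and -0.64 for G6pdx (-1.29 to 0.01, adjusted p = 0.46). These misses do not show that the compounds act alike on the pathway. The 2 compounds were used at different doses, so no statement on their potency is made.

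Sebocyte markers, genes of the lipid-making cells of the sebaceous gland, moved in the same libraries. All 10 of 10 were listed, only Fads2 was at or under the floor and only in the control, and their summed rescaled level was 485 and 762 CPM with forskolin, 1598 and 2162 CPM with cAMP and 303 CPM in the control. After rescaling 6 of the 10 rose with cAMP, 5 rose and 1 fell with forskolin, and 3 were lower with forskolin than with cAMP. Of all genes, 14.8% rose with cAMP, 14.4% rose and 7.39% fell with forskolin, and 0.254% were lower with forskolin than with cAMP. Summed rescaled melanocyte markers (6 of 6 listed) had 59.6 and 165 CPM with forskolin, 141 and 210 CPM with cAMP and 70.9 CPM in the control. Their group means had the same order, with libraries that overlapped between groups. The part of either cell type in the pentose phosphate values was not tested.

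**Figure D5:**
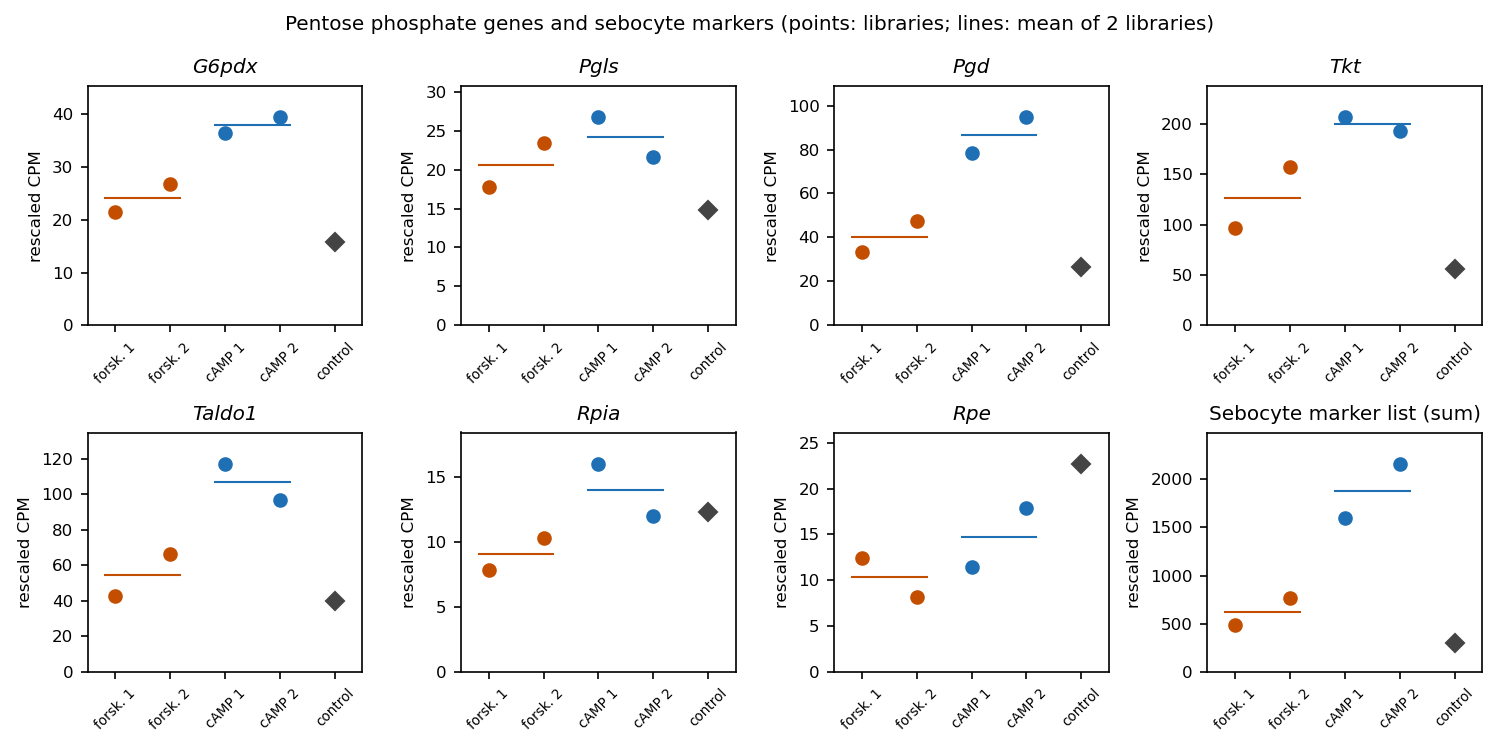
Rescaled CPM (axes from 0) of the 7 pentose phosphate genes and of the summed sebocyte markers in each library, with the mean of each treated pair as a line. The order of the groups in the G6pdx, Pgd, Tkt and Taldo1 panels (cAMP highest, then forskolin, then control) is that of the marker sum, which reads 485 and 762 CPM with forskolin, 1598 and 2162 CPM with cAMP and 303 CPM in the control. Summed melanocyte markers, not drawn, had the same order of group means.

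Of the glycogen genes, 4 of 7 rose as deposited with forskolin and 5 of 7 with cAMP, shares below and near the 66.3% and 65.1% of all genes called higher. After rescaling 2 rose and 1 fell with forskolin and 3 rose with cAMP. Pgm2 is the phosphoglucomutase on chromosome 4 that current annotation calls Pgm1, and the table's Pgm1 on chromosome 5 is the gene now called Pgm2. The chromosome 4 gene, which links glucose 1-phosphate to glucose 6-phosphate, had 11.4 and 10.6 CPM with forskolin, 14.6 and 13.4 CPM with cAMP and 0.727 CPM in the control. Its rescaled change was 1.46 ± 0.43 with forskolin (adjusted p = 0.023) and 1.78 ± 0.43 with cAMP (adjusted p = 0.0069), and the forskolin call was lost without forskolin replicate 2 (adjusted p = 0.063). The chromosome 5 gene had 3.64 to 4.24 rescaled CPM in the treated libraries and 7.79 rescaled CPM in the control, and did not pass.

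Gys1, glycogen synthase of muscle and most tissues, had 4.49 and 17.0 CPM with forskolin, 18.2 and 5.66 CPM with cAMP and 0.142 CPM in the control, about 7.01 estimated reads. The replicates of each pair differed by more than 3-fold, so the groups overlapped each other while all 4 lay above the control. The rescaled change was 2.39 ± 0.60 with forskolin (adjusted p = 0.010) and 2.56 ± 0.60 with cAMP (adjusted p = 0.0062), and each call was lost without the higher library of its pair (adjusted p = 0.084 and 0.089). Ugp2, which makes the UDP-glucose that glycogen synthase uses, had 26.4 and 12.6 CPM with forskolin, 26.1 and 21.9 CPM with cAMP and 12.5 CPM in the control. It was not called as deposited, with changes of 0.52 and 0.89, and after rescaling it fell with forskolin (-1.48 ± 0.42, adjusted p = 0.020) and had -1.11 with cAMP (adjusted p = 0.067). The forskolin call rests on forskolin replicate 2, the library with 7.98% ribosomal RNA, without which the adjusted p was 0.13.

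Pygb, the brain-type glycogen phosphorylase that releases glucose 1-phosphate, had 24.9 and 42.2 CPM with forskolin, 63.7 and 55.5 CPM with cAMP and 4.84 CPM in the control. Both cAMP libraries exceeded both forskolin libraries, and the rescaled change was 1.46 ± 0.42 with cAMP (adjusted p = 0.018, lost without either cAMP library) and 0.60 with forskolin. Pygl, the liver-type phosphorylase, had 16.3 and 14.3 CPM with forskolin, 13.4 and 11.1 CPM with cAMP and 4.58 CPM in the control, with rescaled changes of -0.34 and -0.63. Per kilobase of coding transcript Pygb stood at 6.18 to 15.9 CPM per kb and Pygl at 3.64 to 5.19 in the treated libraries, against 0.940 and 1.61 CPM per kb in the control, so their order differed between treated and control libraries. Gbe1, the branching enzyme, stayed between 0.911 CPM in the control and 3.92 CPM in the treated libraries, with rescaled changes of -0.22 and -0.01.

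Other genes of these pathways, 54 in all, were looked at as a list, of which 45 were in the table and 38 were tested. As deposited 18 rose with forskolin and 16 with cAMP, and after rescaling 4 rose and 1 fell with forskolin and 2 rose and 1 fell with cAMP, for medians of 0.03 and 0.16. These shares are below those of all genes, of which 66.3% and 65.1% were called higher as deposited and 14.4% and 14.8% after rescaling. Tigar, a phosphatase that lowers fructose 2,6-bisphosphate, had 3.67 and 5.28 CPM with forskolin, 9.39 and 4.48 CPM with cAMP and was under the floor in the control. Slc2a12, a glucose transporter, was lower after rescaling with both compounds (-1.81, adjusted p = 0.0087, and -1.76, adjusted p = 0.0092) with 5.23 to 7.66 CPM in treated libraries and 5.97 CPM in the control. Minpp1 and Phka2 rose with forskolin (1.60 and 1.43) and Adpgk with both compounds (1.37 and 1.22), which completes the calls of this list after rescaling. Of 14 regulators, 12 rose with forskolin and 11 with cAMP as deposited, and after rescaling 5 rose and 0 fell with forskolin, where 14.4% of all genes were higher and 7.39% lower, and 4 rose and 1 fell with cAMP, where 14.8% were higher and 7.78% lower. Myc, a transcription factor that drives glycolytic genes, had 64.9 and 49.0 CPM with forskolin, 56.0 and 34.8 CPM with cAMP and 3.10 CPM in the control, with rescaled changes of 1.97 (adjusted p = 0.0016) and 1.64 (adjusted p = 0.0051). Vhl, which targets hypoxia-inducible factor for degradation, rose with both compounds (adjusted p = 0.0089 and 9.7e-04), with 3.55 and 4.45 CPM with forskolin and 9.39 and 5.41 CPM with cAMP, and was under the floor in the control. Arnt, the partner of hypoxia-inducible factor, had rescaled changes of 1.59 (adjusted p = 0.0096) and 1.39 (adjusted p = 0.018). Keap1, which holds back the antioxidant factor Nrf2, rose with both (1.30 and 1.39), and Mlxip, a glucose-responsive transcription factor, rose with forskolin (1.51). The 1 regulator that fell with cAMP was Prkaa1, a catalytic subunit of the energy sensor AMPK (-1.53, adjusted p = 0.024), named after its value was seen.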

How the data were processed

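RNA was sequenced from total epidermis in 5 libraries (Illumina stranded mRNA kit, per the labels' protocols). The submitters' processing notes name STAR, Partek and bcl2fastq 2.17, without a genome build. The authors deposited one table of CPM per transcript, with a small offset in place of 0. Of the 166 transcripts of the 34 genes, 161 are in GENCODE M21 (GRCm38) and 153 have its start and end. Transcripts were summed per gene, which gave 21667 genes. Depth was estimated from the offset taken as 0.0001 reads, and at that depth 59.6% to 75.7% of low values lay within 0.1 of a whole read, where chance gives 20%, so counts were not recovered and CPM were tested.

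A filter kept genes reaching 1 CPM in 2 or more libraries (13764, all 34 members among them), which were tested on log2(CPM + 1) with limma 3.58.1 in R 4.3.3, trend on, 3 groups in one fit, Benjamini-Hochberg adjustment over all genes tested and a threshold of 0.05. The same fit was made after median-of-ratios scaling with 11512 genes, with size factors of 1.42 and 1.31 for forskolin, 1.65 and 1.12 for cAMP and 0.317 for the control. Near-identical copies were transcripts of other genes with at least 90% identity over at least 50% of their length and at least 200 bases (BLAST). Transcript classes are those deposited with the CPM, whose annotation is not named. Transcript lengths are from GENCODE M21 and promoters from RefSeq (GRCm38.p6). Intervals and floors cover counting or replicate error only.

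The members, gene lists and tests were chosen with earlier results of these data known. Full values are given for genes called in the same direction under both scalings against the control, and for a further set of main enzymes whatever their call. Other pathway genes and regulators are given as counts, with those called after rescaling named: up to 4 with the smallest p in each comparison with the control by rule, and Prkaa1 and, with forskolin, Adpgk and Keap1 besides. Values of Ugp2 and the other members are given besides.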

Additional observations from a re-analysis of the deposited data

How the results depend on the processing

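Calls against the control depended on the scaling. With median-of-ratios scaling 6 members were called with forskolin (27 as deposited), 11 with cAMP (28) and 9 with both (28), and with scaling to nuclear genes 7, 12 and 13. All genes called went from 9177, 9025 and 9814 as deposited to 2997, 3113 and 3650 and, scaled to nuclear genes, to 3076, 3101 and 3657. Log2 changes that turned under median-of-ratios scaling were, with forskolin Aldoc -0.73, Pgam1 -0.35, Eno3 -0.85, Pgm1 -0.92, Rpia -0.41, Rpe -1.09, Gbe1 -0.22, Pygl -0.34, Ugp2 -1.48 and with cAMP Slc2a3 -0.85, Aldoc -0.97, Eno3 -0.75, Pfkfb3 -0.48, Pgm1 -0.83, Rpe -0.63, Gbe1 -0.0066, Pygl -0.63, Ugp2 -1.11. Scaled to nuclear genes they were, with forskolin Aldoc -0.62, Pgam1 -0.22, Eno3 -0.74, Pgm1 -0.81, Rpia -0.30, Rpe -0.98, Gbe1 -0.13, Pygl -0.23, Ugp2 -1.36 and with cAMP Slc2a3 -0.81, Aldoc -0.91, Eno3 -0.69, Pfkfb3 -0.42, Pgm1 -0.77, Rpe -0.56, Pygl -0.57, Ugp2 -1.05. Coding transcripts alone with rescaling (an alternative chosen after seeing the data, as were the added copies and the rescaled block) turned, with forskolin Slc2a1 -1.07, Aldoc 1.33, Gapdh -0.35, Pgls -0.12 and with cAMP Slc2a1 -1.58, Aldoc 0.89, Pfkfb3 0.45, Pgm1 0.19. The cause was not tested. Leaving out 1 library at a time gave 22 to 29 members called with forskolin, 25 to 31 with cAMP and 26 to 31 with both as deposited, and 3 to 8, 5 to 12 and 7 to 11 rescaled. The 3 was without forskolin replicate 2, and the rescaled cAMP count was 5 without cAMP replicate 1 and 7 without cAMP replicate 2. As deposited, the change with forskolin that turned was Slc2a3 0.58 without forskolin replicate 1 (-0.95 without forskolin replicate 2). Rescaled, those that turned were, with forskolin, Gpi1 -0.059 and Aldoa -0.17 without forskolin replicate 2. With cAMP they were Pfkl -0.11, Eno1 -0.20, Rpia -0.040 and Gbe1 0.21 without cAMP replicate 1. For forskolin against cAMP only the 7 pentose phosphate genes were followed. Of these Pgls turned as deposited, at 0.20 without cAMP replicate 1 (-0.64 without cAMP replicate 2). Without forskolin replicate 1 all genes called as deposited fell to 5342 with forskolin. Rescaled, they were 1934 with forskolin without forskolin replicate 2 and 2020 with cAMP without cAMP replicate 2. For forskolin against cAMP the 52 genes called as deposited became 16 with a pseudocount of 0.1, 0 with no filter, 33 with a filter of 10 CPM, 6 with coding transcripts alone and 10 to 71 with 1 library left out. The 48 rescaled became 8 with a pseudocount of 0.1, 10 with coding transcripts alone and 0 to 191 with 1 library left out, and 0 members were called in any of these (limma). Pseudocounts of 0.1 and 5, the filters, coding transcripts as deposited and near-identical copies kept the member counts within 1.5 times. Member values were followed for each compound against the control, and for the 7 pentose phosphate genes in forskolin against cAMP. Of these values under all alternatives, 1240 kept their direction and side of the threshold, 124 lost the threshold, 18 gained it and 51 turned.

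The forskolin and cAMP titles share replicate numbers, but same-numbered libraries did not deviate together (correlation across genes -0.05 as deposited, -0.07 rescaled, 2 pairs). With a replicate block 0 members were called under both scalings, as without it, and all genes called were 55 and 182. No paired analysis of the control comparisons was possible because the control has 1 library. With 1 control library, no spread within the control could be measured.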
